A study of Mus musculus with 36 samples.

Results

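The genes of 8 RNA-binding proteins that act in germ cells, Nanos1, Nanos2, Nanos3, Dnd1, Pum2, Dazl, Ddx4 and Ddx43, were followed in germ cells and supporting cells sorted from fetal mouse gonads. They were taken from 19938 genes measured, by symbol: a probe set counted where the array's annotation gave it exactly 1 gene symbol, matched through the Entrez identifier where the symbol was an older one. Each of the 8 genes had 1 such probe set, and all 8 passed the filter on dim genes. RNA had been hybridised to Affymetrix Mouse Gene 1.0 ST arrays, which read a transcript along its exons, and the deposited values are log2 expression.

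The arrays fall into 12 groups of 3, listed here by cell type, sex and stage. Germ cells, XY and XX, were sorted at TS13, TS24 and TS34 by an Oct4 reporter from progeny of C57BL/6NJ on a mixed background. The stage numbers are those of the labels, which place them before, during and after the onset of sexual differentiation and do not spell out TS. Supporting cells, the somatic lineage that gives Sertoli cells to a testis and pregranulosa cells to an ovary, came from 2 lines. XY supporting cells at TS13 and XX supporting cells at all 3 stages carried Tg(Sry-EGFP)92Ei and descended from CD-1 mice, while XY supporting cells at TS24 and TS34 carried Tg(Sox9-cre/ERT2)1Msan/J and descended from C57BL/6 mice. Cell type and mouse line therefore cannot be told apart, nor can sex or stage and mouse line in the later XY supporting groups. Gonads had been pooled by sex before sorting, and the labels do not say whether the 3 arrays of a group are separate pools. The p-values therefore speak only of array-to-array spread, which may be technical.

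One library was left out of all values below unless stated. The array labelled germ XX TS24 replicate 3 had a somatic profile, with Pou5f1, the gene behind the Oct4 reporter, at 5.07 and the somatic gonad factor Wt1 at 11.19, so germ XX TS24 rests on 2 arrays and 35 arrays entered the fit. On that array Dazl stood at 5.02 and Ddx4 at 5.04, near their supporting cell levels. The 10 germ cell markers were all called higher in germ than in supporting cells, and the 7 supporting cell markers were all called lower. The marker lists were chosen with earlier results of these data known, and Pou5f1 is the reporter's own gene. These calls therefore describe the arrays and are no independent test of the sort. The summed level of the supporting cell markers was 9.27 to 10.17 on the germ arrays, against 12.29 to 13.49 on the supporting cell arrays. Array medians ran from 6.41 to 6.84.

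These proteins bind messenger RNA and decide whether it is stored, translated or destroyed. NANOS proteins carry a zinc finger, need a partner to choose their targets, and bring in the CCR4-NOT complex, which shortens poly(A) tails. NANOS3 keeps early germ cells alive, NANOS2 holds male germ cells out of meiosis in the fetal testis, and NANOS1 is best known from the nervous system. DND1 is a partner of NANOS2 in male germ cells and is needed for germ cell survival, and PUM2 is a widely expressed Pumilio protein of the family that works with Nanos in flies. DAZL binds U-rich stretches of messenger RNAs and makes germ cells competent to enter the male or female path. DDX4, the mouse VASA homologue, and DDX43 are DEAD-box RNA helicases of germ cells.

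The stretch around the annotated start is shown for 5 of the 7 genes that matched a RefSeq window, the 5 among them with a called sex or stage difference in germ cells. Each sequence has 300 bases, is read 5′ to 3′ on the gene's own strand, and comes from RefSeq on GRCm38.p6, with CG pairs in capitals. A CG read on the other strand is the same pair, so both strands are covered.
Nanos2, chr7:18987274-18987573, plus strand: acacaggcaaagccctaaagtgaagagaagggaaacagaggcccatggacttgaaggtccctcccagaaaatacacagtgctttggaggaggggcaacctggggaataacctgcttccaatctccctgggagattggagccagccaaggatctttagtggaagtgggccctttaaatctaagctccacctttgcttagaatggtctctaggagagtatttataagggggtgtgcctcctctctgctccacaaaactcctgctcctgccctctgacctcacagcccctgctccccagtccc
Nanos3, chr8:84176503-84176802, minus strand: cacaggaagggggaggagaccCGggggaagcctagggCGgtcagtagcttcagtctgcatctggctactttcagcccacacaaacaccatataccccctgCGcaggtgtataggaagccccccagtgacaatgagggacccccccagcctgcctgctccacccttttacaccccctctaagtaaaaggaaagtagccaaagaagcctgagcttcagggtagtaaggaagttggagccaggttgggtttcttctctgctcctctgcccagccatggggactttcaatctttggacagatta
Dazl, chr17:50293571-50293870, minus strand: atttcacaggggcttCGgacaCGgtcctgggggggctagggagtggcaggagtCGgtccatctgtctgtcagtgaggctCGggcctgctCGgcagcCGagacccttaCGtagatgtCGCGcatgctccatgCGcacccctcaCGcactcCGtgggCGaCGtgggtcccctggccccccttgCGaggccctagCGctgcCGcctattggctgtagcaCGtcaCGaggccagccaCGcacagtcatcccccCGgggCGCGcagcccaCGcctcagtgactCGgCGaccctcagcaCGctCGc
Ddx4, chr13:112652261-112652560, minus strand: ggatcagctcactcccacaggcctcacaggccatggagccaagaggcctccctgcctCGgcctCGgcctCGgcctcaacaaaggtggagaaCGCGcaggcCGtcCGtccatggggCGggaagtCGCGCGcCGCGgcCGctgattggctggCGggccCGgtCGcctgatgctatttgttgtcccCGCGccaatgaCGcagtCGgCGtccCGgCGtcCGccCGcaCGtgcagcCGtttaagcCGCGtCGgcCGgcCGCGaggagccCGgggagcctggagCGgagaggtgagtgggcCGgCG
Ddx43, chr9:78395527-78395826, plus strand: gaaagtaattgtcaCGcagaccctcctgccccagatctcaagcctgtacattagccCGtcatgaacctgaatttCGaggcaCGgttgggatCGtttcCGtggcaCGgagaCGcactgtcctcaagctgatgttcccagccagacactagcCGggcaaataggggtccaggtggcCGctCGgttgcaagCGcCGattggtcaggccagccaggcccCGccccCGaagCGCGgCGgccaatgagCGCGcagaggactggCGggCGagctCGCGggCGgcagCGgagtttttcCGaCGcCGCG
The Nanos2 window held 0 CG pairs, and 5.43% of 32851 mouse start windows of this length held as few. Nanos3 had 3, at or under which lay 31.38% of windows, while the median window had 7. Dazl had 28, Ddx43 30 and Ddx4 38, and 14.18%, 11.68% and 4.95% of windows held at least as many. Nanos1, with no called difference over the stages, had 34, and the 3 annotated windows of Pum2 had 35, 37 and 44. The counts describe these letters only.

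**Figure D1:**
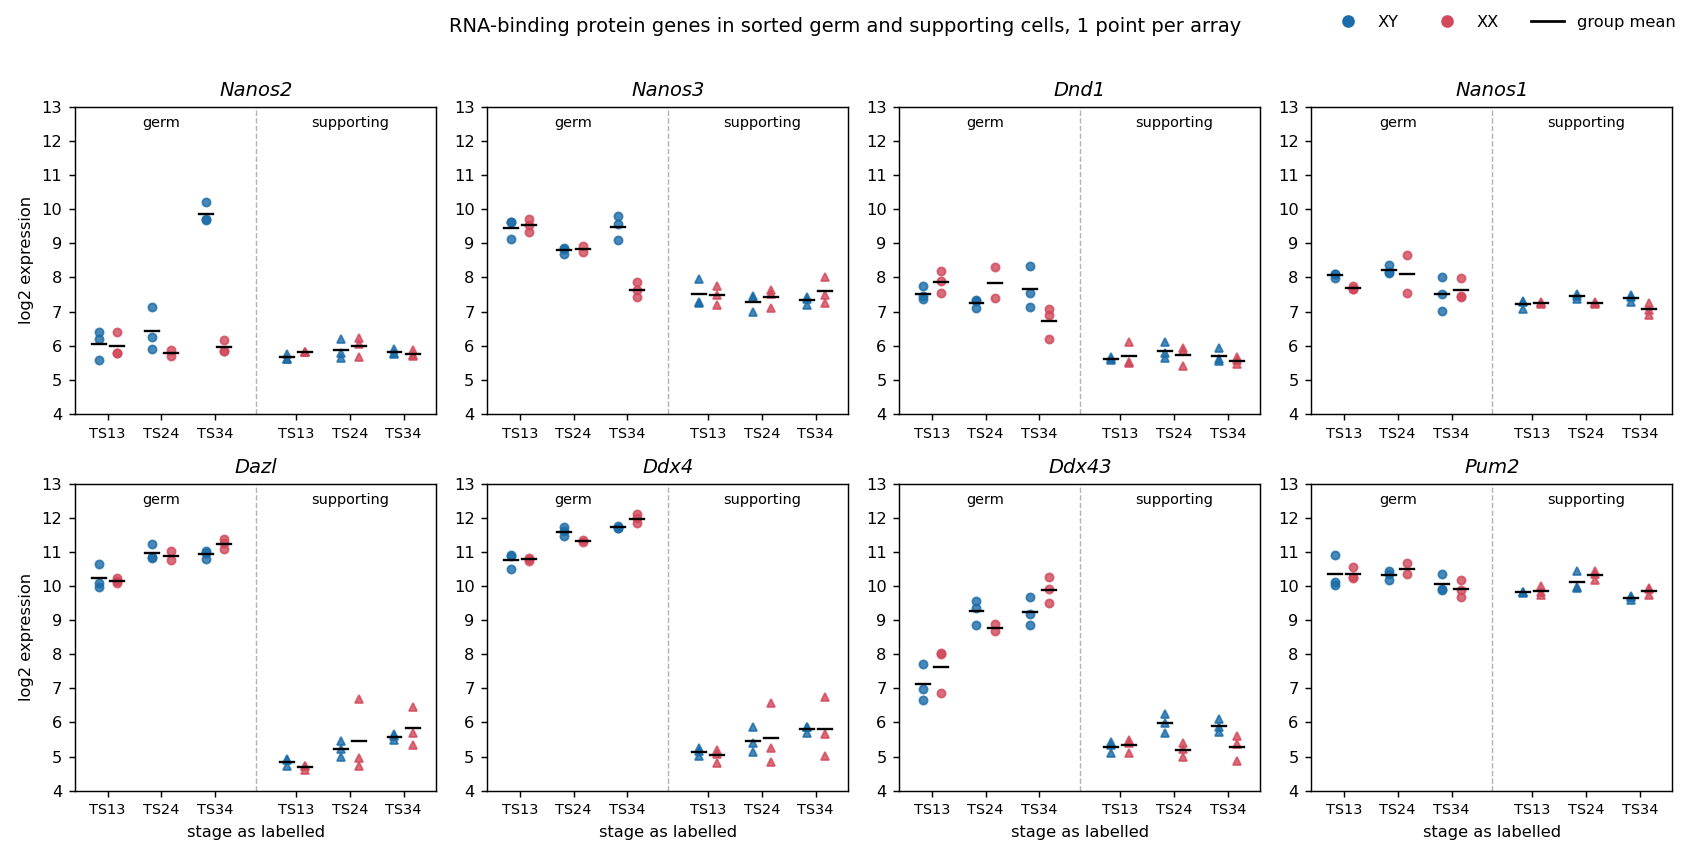
Log2 expression of the 8 genes (vertical axis) at the 3 labelled stages (horizontal axis) in germ cells (circles, left) and supporting cells (triangles, right), with XY in blue and XX in red. Each point is an array and black bars are group means, 3 arrays a group and 2 for germ XX TS24. Nanos2 stands at 9.67 to 10.20 on the XY germ arrays at TS34 and at or below 7.12 on every other array.

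Nanos2 was high in a single group of the 12, XY germ cells at TS34. Over the 3 stages XY germ cells gave log2 levels of 6.20, 5.57 and 6.41 at TS13, 5.90, 7.12 and 6.26 at TS24, and 9.67, 9.70 and 10.20 at TS34. In XX germ cells it was 5.78, 6.39 and 5.79 at TS13, 5.87 and 5.70 at TS24, and 5.85, 6.18 and 5.85 at TS34. The XX arrays stayed in the range of the supporting cells, 5.61 to 6.23 over their 18 arrays, apart from 1 array at 6.39.
At TS34 Nanos2 averaged 9.86 ± 0.30 in XY germ cells and 5.96 ± 0.19 in XX germ cells (SD, n = 3 each), a difference of 3.90 ± 0.23 (SE), or 14.9-fold (adjusted p = 8.82e-19). It was above the median of its array on 0 of the 3 XX arrays, so this fold is set against dim values. At TS24 the 3 XY arrays all lay above the XX arrays, but the difference of 0.64 ± 0.26 did not pass the test (adjusted p = 0.202). The share of all genes that separate like this at TS24 was not counted. XY replicate 2 at TS24, at 7.12, was the highest array outside XY TS34. In XY germ cells Nanos2 rose by 3.43 ± 0.23 at TS34 relative to TS24 (10.8-fold, adjusted p = 1.04e-15), and the step of 0.37 ± 0.23 between TS24 and TS13 was not called (adjusted p = 0.655). Nanos2 was above the array median on 1 of the 3 XY arrays at TS24, so that fold is set against dim values too.

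Nanos3 had another course: germ cells of both sexes started high, and the sexes were called different at TS34. XY germ cells had 9.63, 9.12 and 9.62 at TS13, 8.87, 8.68 and 8.82 at TS24, and 9.10, 9.80 and 9.56 at TS34. XX germ cells had 9.54, 9.32 and 9.71 at TS13, 8.92 and 8.74 at TS24, and 7.86, 7.64 and 7.44 at TS34. The sexes overlapped at TS13 and TS24, and at TS34 the lowest XY array was more than 1 log2 unit above the highest XX array. How many of all genes separate at TS34 was not counted.
Nanos3 at TS34 averaged 9.48 ± 0.35 in XY and 7.65 ± 0.21 in XX germ cells, a difference of 1.84 ± 0.22 or 3.58-fold (adjusted p = 1.09e-08). In XX germ cells Nanos3 fell by 1.18 ± 0.24 at TS34 relative to TS24 (adjusted p = 0.000976), and by 1.88 ± 0.22 relative to TS13 (adjusted p = 4.11e-09). The fall relative to TS24 was not called with the library of somatic profile kept (−0.66, adjusted p = 0.106). The XX mean was 9.52 at TS13 and 8.83 at TS24, a step that was not called. Median centring called that XX step (−0.78, adjusted p = 0.0341), as did the fit with the library of somatic profile kept (−1.21, adjusted p = 0.0145). XY germ cells had a shallow low point at TS24: the difference was −0.66 ± 0.22 relative to TS13 (adjusted p = 0.149) and TS34 lay 0.69 ± 0.22 above TS24 (adjusted p = 0.0784), neither of them called. Median centring called the first (−0.71, adjusted p = 0.025). The last was called under quantile normalization (0.80, adjusted p = 0.0106), median centring (0.77, adjusted p = 0.00831) and array weights (0.76, adjusted p = 0.0339), and without XY TS34 replicate 1 (0.88, adjusted p = 0.0397).
In sorted pools, fewer cells with a transcript and less transcript per cell cannot be told apart.

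Dnd1, like Nanos3, fell in XX germ cells at TS34. Its levels in XY germ cells were 7.37, 7.75 and 7.44 at TS13, 7.34, 7.29 and 7.12 at TS24, and 7.12, 7.54 and 8.34 at TS34. XX germ cells gave 8.18, 7.89 and 7.54 at TS13, 7.40 and 8.30 at TS24, and 6.90, 7.09 and 6.19 at TS34. All XX arrays at TS34 lay below every XY array of that stage, and the share of all genes that do so was not counted. Before TS34 the XX group means were the higher of the pair.
At TS34 the means were 7.67 ± 0.62 in XY and 6.73 ± 0.47 in XX, a difference of 0.94 ± 0.24 or 1.92-fold (adjusted p = 0.00589). Dnd1 fell in XX germ cells by 1.12 ± 0.27 at TS34 relative to TS24 (adjusted p = 0.00539) and by 1.14 ± 0.24 relative to TS13 (adjusted p = 0.000418), and XY differed by 0.15 ± 0.24 over the same span (adjusted p = 0.875). Single arrays carried much of the sex difference: without XY TS34 replicate 3 it was 0.60 (adjusted p = 0.168), without XX TS34 replicate 3 it was 0.67 (adjusted p = 0.129), and with the library of somatic profile kept its adjusted p was 0.0727. The XX fall relative to TS24 was not called without XX TS24 replicate 2 (−0.68, adjusted p = 0.237), without XX TS34 replicate 3 (−0.86, adjusted p = 0.0931) or with all arrays (−0.53, adjusted p = 0.262).

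Nanos1 and Pum2 showed no called difference between the sexes or between stages in germ cells. Nanos1 lay between 7.01 and 8.64 over the 17 germ arrays and was lowest on XY TS34 replicate 1, while its XY difference at TS34 relative to TS24 was −0.71 ± 0.21 (adjusted p = 0.0527). That difference was called under median centring (−0.63, adjusted p = 0.0436), with the filter at the 50th percentile (adjusted p = 0.0497) and without XY TS34 replicate 2 (−0.95, adjusted p = 0.00711). Without that array the XY difference relative to TS13 was called as well (−0.80, adjusted p = 0.0158). Nanos1 in XX germ cells was also called without XX TS24 replicate 2, at −1.02 for TS34 relative to TS24 (adjusted p = 0.0227), the 2 XX arrays at TS24 being 8.64 and 7.56. Pum2 ranged from 9.67 to 10.90 on the germ arrays, with XY minus XX differences of 0.00, −0.19 and 0.14 at the 3 stages. The widest Pum2 step, XX germ cells at TS34 relative to TS24, was −0.60 ± 0.22 (adjusted p = 0.0817), and it was called with all arrays (−0.73, adjusted p = 0.014), with array weights (−0.71, adjusted p = 0.0422) and without XX TS34 replicate 1 (−0.74, adjusted p = 0.03). Relative to TS13 the XX difference of Pum2 at TS34 was −0.43 ± 0.20 (adjusted p = 0.131), and it was called with array weights (−0.49, adjusted p = 0.0304).

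**Figure D2:**
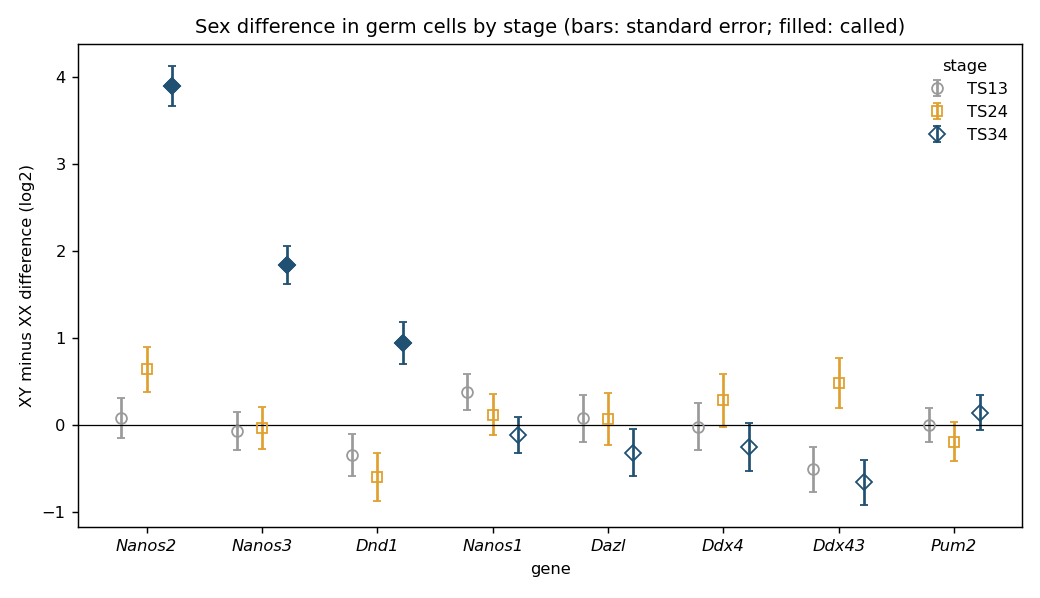
XY minus XX difference in germ cells (log2, vertical axis) for each of the 8 genes (horizontal axis) at TS13, TS24 and TS34. Points are limma estimates, bars standard errors, and filled points passed an adjusted p of 0.05. The 3 filled points are Nanos2, Nanos3 and Dnd1 at TS34, at 3.90, 1.84 and 0.94.

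Among the 8 genes the sexes were called different only at TS34, and over all 17615 genes tested calls also rose with stage. Over all genes they numbered 5, 344 and 1844 at TS13, TS24 and TS34. At TS13 0 of the 8 genes were called between XY and XX germ cells, where limma called 0.0284% of all genes at an adjusted p under 0.05 and 554 genes had an unadjusted p under 0.05. At TS24 0 of 8 were called, beside 1.95% of all genes, with 2633 genes at an unadjusted p under 0.05. Both counts of 0 lie near the share of all genes and are no trait of the 8. At TS34 3 of 8 were called higher in XY, beside 6.02% of all genes, and 0 of 8 lower, beside 4.45%.
Ddx43 was the nearest to a call in the other direction, with 8.84, 9.17 and 9.67 in XY and 10.25, 9.50 and 9.91 in XX germ cells at TS34. Its difference of −0.66 ± 0.26 missed the threshold (adjusted p = 0.102), and passed it under quantile normalization (−0.72, adjusted p = 0.0371) and without XY TS34 replicate 3 (−0.88, adjusted p = 0.0441). The XY and XX arrays of Ddx43 overlapped. Dazl and Ddx4 lay lower on every XY than on every XX array at TS34, and the share of all genes that do so was not counted. Dazl and Ddx4 were lower by 0.32 ± 0.27 and 0.26 ± 0.27 and were not called (adjusted p = 0.56 and 0.666).
The change of the sex difference was tested as an interaction. Between TS34 and TS13 it was called higher for 3 of 8 genes, beside 1.79% of all genes, and between TS34 and TS24 for the same 3, beside 0.744%. These were Nanos2, Nanos3 and Dnd1. Between TS24 and TS13 0 of 8 were called, beside 0.153% of all genes, with 1523 genes at an unadjusted p under 0.05.

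Other cell markers moved with part of this comparison. Of the 10 germ cell markers, 5 were called higher and 1 lower in XY germ cells at TS34, and their summed level ran from 13.69 to 14.49 on the XY arrays and from 13.06 to 13.73 on the XX arrays. Of 6 Sertoli cell markers, 2 were called higher in XY germ cells at TS34, with a summed level of 9.35 to 9.77 in XY and 8.78 to 9.09 in XX. These were Cst9, at 7.69 in XY and 4.49 in XX, and Hsd17b3, at 6.41 in XY and 5.13 in XX. Both XX means are dim, below the 25th percentiles of those arrays, 5.19 to 5.59. Of the rest, Sox9 and Amh averaged 7.70 and 6.19 in XY, against 7.42 and 6.04 in XX. Levels of Dhh and Ptgds are not reported here. None of 6 pregranulosa, 7 supporting cell, 7 interstitial, 5 endothelial, 4 macrophage or 2 erythroid markers was called. Of 4 mesonephric markers 1 was called higher, Lhx1, with sums of 8.74 to 9.46 in XY and 8.38 to 8.77 in XX. In XY supporting cells at TS34 Sertoli markers summed to 13.66 to 13.93. Nanos2 was 5.75 to 5.91 there, Nanos3 7.20 to 7.44 and Dnd1 5.54 to 5.94. The part of the Sertoli and germ cell marker shifts in the Nanos2, Nanos3 and Dnd1 differences was not tested.

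Ddx43 and Ddx4 rose in germ cells of both sexes at TS34 relative to TS13, Ddx43 by the most, and Dazl was called in XX alone. Ddx43 in XY germ cells was 7.73, 6.99 and 6.66 at TS13, 8.86, 9.57 and 9.34 at TS24, and 8.84, 9.17 and 9.67 at TS34. In XX germ cells it was 8.04, 8.005 and 6.86 at TS13, 8.88 and 8.67 at TS24, and 10.25, 9.50 and 9.91 at TS34. The XY arrays reached their later range by TS24, and in XX each stage lay above the last without overlap. How many of all genes do so was not counted.
XY germ cells gained 2.13 ± 0.26 in Ddx43 at TS24 relative to TS13 (4.39-fold, adjusted p = 1.78e-07) and differed by −0.03 ± 0.26 at TS34 relative to TS24 (adjusted p = 0.984). XX germ cells gained 1.14 ± 0.29 at TS24 relative to TS13 (adjusted p = 0.0268) and 1.11 ± 0.29 at TS34 relative to TS24 (adjusted p = 0.00996). Over the whole span, TS34 relative to TS13, Ddx43 rose by 2.10 ± 0.26 in XY and 2.25 ± 0.26 in XX. The difference between the sexes in the timing was not called: the sex difference changed by 0.99 ± 0.39 between TS24 and TS13 (adjusted p = 0.397) and by −1.14 ± 0.39 between TS34 and TS24 (adjusted p = 0.163).
The XX steps of Ddx43 rest on few arrays. The step between TS24 and TS13 was not called without XX TS13 replicate 3 (0.75, adjusted p = 0.271), without XX TS24 replicate 1 (1.03, adjusted p = 0.172) or replicate 2 (1.25, adjusted p = 0.154), with array weights (1.25, adjusted p = 0.127), or with all arrays (0.27, adjusted p = 0.881). The step between TS34 and TS24 was not called without XX TS24 replicate 2 (1.00, adjusted p = 0.116) or with array weights (0.95, adjusted p = 0.0926).

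Dazl in XY germ cells was 10.64, 9.96 and 10.09 at TS13, 10.84, 10.81 and 11.22 at TS24, and 10.78, 11.01 and 10.97 at TS34. XX germ cells had 10.14, 10.24 and 10.08 at TS13, 11.01 and 10.76 at TS24, and 11.09, 11.38 and 11.26 at TS34. In both sexes every later array stood above every TS13 array, and the share of all genes that do so was not counted. The gain at TS34 relative to TS13 was called in XX, at 1.09 ± 0.27 (adjusted p = 0.0024), and was 0.69 ± 0.27 in XY (adjusted p = 0.118), where quantile normalization gave 0.83 (adjusted p = 0.0326).
Ddx4 in XY germ cells was 10.92, 10.48 and 10.89 at TS13, 11.61, 11.46 and 11.71 at TS24, and 11.71, 11.68 and 11.75 at TS34. Its XX values were 10.81, 10.80 and 10.74 at TS13, 11.33 and 11.29 at TS24, and 11.83, 12.09 and 11.99 at TS34. The arrays of a group lay close together, and the stages did not overlap in XX, where TS34 lay 0.66 ± 0.31 above TS24 (adjusted p = 0.182, and 0.0469 under quantile normalization, at 0.93). That separation, too, was not counted over all genes. At TS34 relative to TS13 Ddx4 rose by 1.19 ± 0.27 in XX (adjusted p = 0.00108) and by 0.95 ± 0.27 in XY (adjusted p = 0.0188). The XY rise was not called without XY TS13 replicate 2 (0.81, adjusted p = 0.107), without XY TS34 replicate 1 (0.95, adjusted p = 0.0581) or replicate 3 (0.93, adjusted p = 0.0556), or with array weights (0.91, adjusted p = 0.0702). With the library of somatic profile kept, the rises of Dazl and Ddx4 in XX (adjusted p = 0.316 and 0.304) and of Ddx4 in XY (adjusted p = 0.696) were not called. The estimates stayed at 1.09, 1.19 and 0.95. Neither Dazl nor Ddx4 showed a sex difference that changed between stages, the estimates being −0.40 ± 0.38 and −0.24 ± 0.39 between TS34 and TS13.

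Counted by step, XX germ cells at TS24 relative to TS13 had 1 of 8 genes higher, Ddx43, beside 0.976% of all genes. At TS34 relative to TS24 they had 1 of 8 higher, again Ddx43, beside 1.86%, and 2 of 8 lower, Nanos3 and Dnd1, beside 7.01%. Over the whole span they had 3 of 8 higher, Ddx43, Ddx4 and Dazl, beside 6.62%, and 2 lower, Nanos3 and Dnd1, beside 10.8%. In XY germ cells 1 of 8 was higher at TS24 relative to TS13, Ddx43, beside 0.835%, and 1 of 8 at TS34 relative to TS24, Nanos2, beside 0.982%. Over the whole span 3 of 8 were higher in XY, Nanos2, Ddx43 and Ddx4, beside 3.32%, and 0 of 8 lower, beside 4.8%. The arrays at TS34 sat lower as a whole in XX, with median differences over all genes of −0.153 relative to TS24 and −0.141 relative to TS13, and the calls in these spans held after quantile normalization, which left medians of 0.0014 and −0.0617. Under it Nanos3 fell by 0.99 relative to TS24 (adjusted p = 0.00243) and Dnd1 by 0.98 (adjusted p = 0.0115).
Markers moved over the same span. In XX germ cells 6 of the 10 germ cell markers were called lower at TS34 than at TS13 and 0 higher, with sums of 13.06 to 13.73 at TS34 and 14.26 to 14.37 at TS13. In XY germ cells 4 were lower and 1 higher, with sums of 13.69 to 14.49 at TS34 and 14.14 to 14.74 at TS13. Of 2 erythroid and 5 endothelial markers, 1 each was called lower in either sex. The part of these markers in the falls of Nanos3 and Dnd1, and in the rises of Dazl, Ddx4 and Ddx43, was not tested.

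The 8 genes followed each other to differing degrees over the 17 germ arrays. Pearson's r was 0.94 between Dazl and Ddx4, 0.90 between Dazl and Ddx43, 0.90 between Ddx4 and Ddx43, and 0.66 between Nanos3 and Dnd1. Nanos3 ran against the rising genes, with r of −0.64 with Dazl, −0.64 with Ddx4 and −0.65 with Ddx43. These arrays share groups and overall brightness, so the coefficients describe the groups as much as the genes.
Among all genes tested, those nearest to Nanos2 in pattern were the carbonyl reductase gene Cbr3 (r = 0.957), the uridine phosphorylase gene Upp1 (0.945) and Gm1141 (0.924). Nanos3 was nearest to Zswim1 (0.928), the taurine transporter gene Slc6a6 (0.912) and Acadm (0.906), which encodes an enzyme of fatty acid oxidation. Dnd1 had looser neighbours, the transcription factor gene Foxo1 (0.859), Hs2st1 (0.846) and Nck2 (0.840). Dazl ran with Nefh (0.940), Ddx4 (0.939) and Fnbp1l (0.932), and Ddx4 with Scml2 (0.942), which encodes a germline Polycomb protein, Ccdc172 (0.942) and Dazl. Ddx43 ran with Asap1 (0.950), Agtpbp1 (0.949) and Tdrkh (0.936), the gene of a Tudor protein of the piRNA pathway. Nanos1 was nearest to Myo19 (0.888), Banf1 (0.871) and 1110038F14Rik (0.867). Pum2 was nearest to Mmp25, Olfr332 and Olfr1408 (0.949 each).

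**Figure D3:**
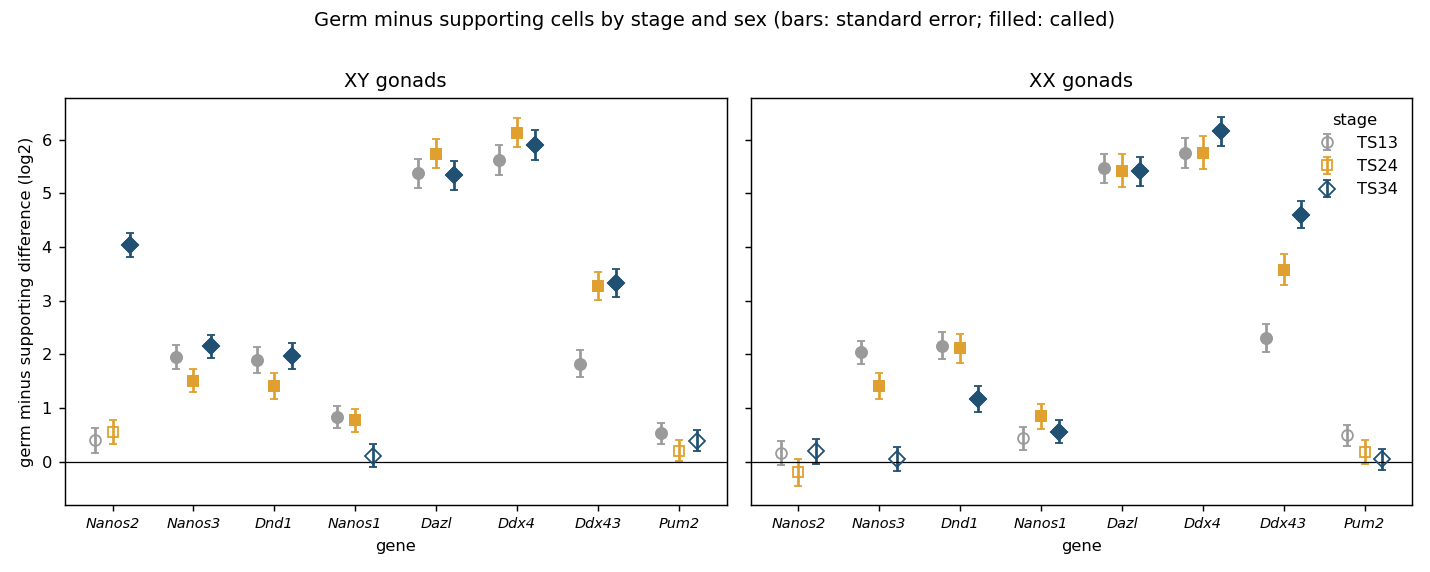
Germ minus supporting difference (log2, vertical axis) of each gene (horizontal axis) within XY gonads (left) and XX gonads (right) at the 3 stages. Points are limma estimates, bars standard errors, and filled points passed an adjusted p of 0.05. In XX gonads the Nanos3 points go down to 0.05 at TS34, and in XY gonads Nanos2 stands at 4.04 at TS34.

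Against the supporting cells, the 8 genes ranged from nearly germ cell specific to widely shared. Averaged over sexes and stages, 8 of 8 were called higher in germ cells, beside 32.8% of all genes higher and 20.2% lower. The 8 had been chosen with earlier results of these data known. Ddx4 was higher by 5.89 ± 0.11, Dazl by 5.46 ± 0.11 and Ddx43 by 3.16 ± 0.11. In supporting cells Dazl was above the 25th percentile of its array on 8 of 18 arrays, Ddx4 on 9 and Ddx43 on 12, so these differences are set against dim values and are given without a fold. Dnd1 followed at 1.79 ± 0.10, Nanos3 at 1.52 ± 0.09, Nanos2 at 0.86 ± 0.10, Nanos1 at 0.60 ± 0.09 and Pum2 at 0.31 ± 0.08 (n = 17 germ and 18 supporting arrays). Germ and supporting arrays did not overlap for Dazl, Ddx4, Ddx43 and Dnd1. The share of all genes that separate in this way was not counted. Endothelial markers also summed higher on the germ arrays, 9.32 to 11.25 against 8.28 to 8.87 on the supporting arrays, with 1 of the 5 called higher and 2 lower, and their part in the differences was not tested. Pum2 was not called under quantile normalization (0.06, adjusted p = 0.515), where all genes split into 4365 called higher and 5282 lower, against 5785 and 3561 without it.
Within XY gonads 23.4% of all genes were called higher at TS13, 16.9% at TS24 and 16.8% at TS34, and within XX gonads 20.1%, 16.5% and 17.1% at the same stages. Dazl, Ddx4, Ddx43 and Dnd1 were called in all 6 of these comparisons. Nanos3 was called in 5, with 2.15 ± 0.22 in XY at TS34, and the exception was XX at TS34, where germ cells had 7.86, 7.64 and 7.44 and supporting cells 8.01, 7.26 and 7.50, a difference of 0.05 ± 0.22 (adjusted p = 0.904). Nanos2 was called in 1, XY at TS34, at 4.04 ± 0.23 (adjusted p = 2.16e-20). At XY TS13 the difference of 0.40 ± 0.23 (adjusted p = 0.2) was called with array weights (0.48, adjusted p = 0.0364) and without germ XY TS13 replicate 2 (0.65, adjusted p = 0.0356). At XY TS24 it differed by 0.55 ± 0.23 (adjusted p = 0.0585), and was called with the intensity trend (adjusted p = 0.0486), without germ XY TS24 replicate 1 (0.82, adjusted p = 0.00808) and without supporting XY TS24 replicate 2 (0.71, adjusted p = 0.0273).
Nanos1 was called in 4 of the 6, and with array weights also in XX TS13 (0.45, adjusted p = 0.0135), at 0.84 in XY TS13, 0.78 in XY TS24, 0.85 in XX TS24 and 0.56 in XX TS34. The XX TS24 call was not made without germ XX TS24 replicate 1 (0.31, adjusted p = 0.477) or with all arrays (0.59, adjusted p = 0.0653). The XX TS34 call was not made without germ XX TS34 replicate 1 (0.38, adjusted p = 0.227), without supporting XX TS34 replicate 2 (0.55, adjusted p = 0.0831) or replicate 3 (0.48, adjusted p = 0.141), or with all arrays (adjusted p = 0.0618). Pum2 was called in 1, XY TS13 (0.53, adjusted p = 0.0345), and not there without germ XY TS13 replicate 3 (0.25, adjusted p = 0.469), without supporting XY TS13 replicate 1 (adjusted p = 0.0711), 2 (0.0724) or 3 (0.0869), or under quantile normalization (0.08, adjusted p = 0.788) or median centring (0.36, adjusted p = 0.114). Alternatives also added calls of Pum2. XX TS13, at 0.49 (adjusted p = 0.0543), was called under median centring (adjusted p = 0.0472), the filter at the 50th percentile (adjusted p = 0.0473) and array weights (adjusted p = 0.0118), and XY TS34 under array weights (0.55, adjusted p = 0.00103).

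In order of group mean, Nanos2 was led by XY germ cells at TS34, then by XY germ cells at TS24 and TS13, and the other 11 groups spanned 5.66 to 6.43. For Nanos3 XX germ cells at TS13, XY germ cells at TS34 and XY germ cells at TS13 headed the order at 9.52, 9.48 and 9.45 and did not differ beyond their spread, followed by the TS24 germ groups at 8.83 in XX and 8.79 in XY. XX germ cells at TS34 (7.65) stood beside XX supporting cells at TS34 (7.59). For Dnd1 the germ groups came first, ending with XX TS34 at 6.73, and the highest supporting group was XY TS24 at 5.84. For Dazl and Ddx4 XX germ cells at TS34 led, at 11.24 and 11.97, with XY germ cells at TS24 and TS34 within 0.4 log2 units. Ddx43 ran from XX germ cells at TS34 (9.89) through XY germ cells at TS24 (9.26) and TS34 (9.23) and XX germ cells at TS24 (8.78) to the TS13 groups, at 7.63 in XX and 7.12 in XY. For Nanos1 all 6 germ group means, 7.51 to 8.22, stood above the 6 supporting ones, 7.06 to 7.44, and XY germ cells at TS34 and XY supporting cells at TS24, next to each other in the order, overlapped. Pum2 group means lay between 9.66 and 10.51 with germ and supporting groups interleaved.

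Over 7 comparisons of sex or successive stage there, 1 of 56 pairs of gene and comparison was called, beside 7.84% of all such pairs over all genes. It was Ddx43, with 6.25, 5.98 and 5.70 in XY and 5.22, 5.40 and 4.99 in XX supporting cells at TS24, where 9.72% of all genes were called higher in XY. The difference of 0.77 ± 0.26 (adjusted p = 0.0318) lies between mouse lines as well as sexes. It was not called without XY replicate 1 (0.64, adjusted p = 0.185), XY replicate 2 (0.77, adjusted p = 0.0668), XX replicate 1 (0.78, adjusted p = 0.0697) or XX replicate 3 (0.67, adjusted p = 0.137), with array weights (0.59, adjusted p = 0.226), or with all arrays (adjusted p = 0.263). At TS34 the Ddx43 sex difference was called only with array weights (0.70, adjusted p = 0.00176), arrays of 1 cell type (0.61, adjusted p = 0.0266) and quantile normalization (0.68, adjusted p = 0.0412). The XY step at TS24 relative to TS13 was called only with arrays of 1 cell type (0.68, adjusted p = 0.0122) and without XY TS24 replicate 3 (0.82, adjusted p = 0.0451). Both also lie between mouse lines.
Over the whole span, XX supporting cells at TS34 relative to TS13, 1 of 8 was called higher, Dazl, beside 2.66% of all genes. Dazl was 6.45, 5.34 and 5.70 at TS34, against 4.72, 4.72 and 4.62 at TS13, a difference of 1.14 ± 0.27 (adjusted p = 0.00398). In XX cells at TS24 relative to TS13 the Dazl difference of 0.78 was not called (adjusted p = 0.12). It ranged from 0.16 to 1.15 when 1 array was left out, and was called without TS24 replicate 2 (1.15, adjusted p = 0.0101) or replicate 3 (1.03, adjusted p = 0.0315). Without TS34 replicate 1 the difference over the whole span was 0.83 (adjusted p = 0.12), and with all arrays its adjusted p was 0.77. Ddx4 on the same arrays was 6.75, 5.67 and 5.02, against 5.19, 5.09 and 4.82, and was not called (adjusted p = 0.105). Without TS34 replicate 3 its difference was 1.18 (adjusted p = 0.00483).
XY supporting cells at TS34 relative to TS13 had 0 of 8 genes called higher, beside 7.37% of all genes, and this span also lies between mouse lines. Dazl was 5.61, 5.50 and 5.65 at TS34, against 4.74, 4.92 and 4.91 at TS13, without overlap, a difference of 0.73 ± 0.27 (adjusted p = 0.0776). Ddx4 differed by 0.67 ± 0.27 (adjusted p = 0.129) and Ddx43 by 0.60 ± 0.26 (adjusted p = 0.156), also without overlap. How many of all genes separate in this way was not counted. With array weights all 3 were called, Dazl at 0.76 (adjusted p = 0.000631), Ddx4 at 0.64 (adjusted p = 0.00816) and Ddx43 at 0.71 (adjusted p = 0.00119), and with arrays of 1 cell type Ddx43 was called (adjusted p = 0.0386).
The supporting arrays with the highest Dazl and Ddx4 were the same pair, XX TS24 replicate 1 at 6.70 and 6.56 and XX TS34 replicate 1 at 6.45 and 6.75. These arrays also had the highest sums of the 10 germ cell markers among the supporting arrays, 10.22 and 10.23, where the other supporting arrays lay between 9.59 and 10.05. Of the 10 markers, values by array are given here for Pou5f1, Dppa3 and Dppa5a only. Pou5f1 was 5.63 and 6.18 on that pair of arrays. The second was the highest of the 18, and the first lay below 5.70 on XY TS24 replicate 1 and 5.76 on XY TS34 replicate 3. Dppa3 was 7.24 and 7.49, below the 7.71 to 7.78 of the XY TS34 arrays, and Dppa5a was 7.38 and 7.27, below 7.54 on XY TS34 replicate 2. Of the germ cell markers as a list, 0 of 10 were called higher and 1 lower in XX supporting cells at TS34 relative to TS13, beside 1.97% of all genes lower. The part of germ cell RNA in these Dazl values was not tested.

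**Figure D4:**
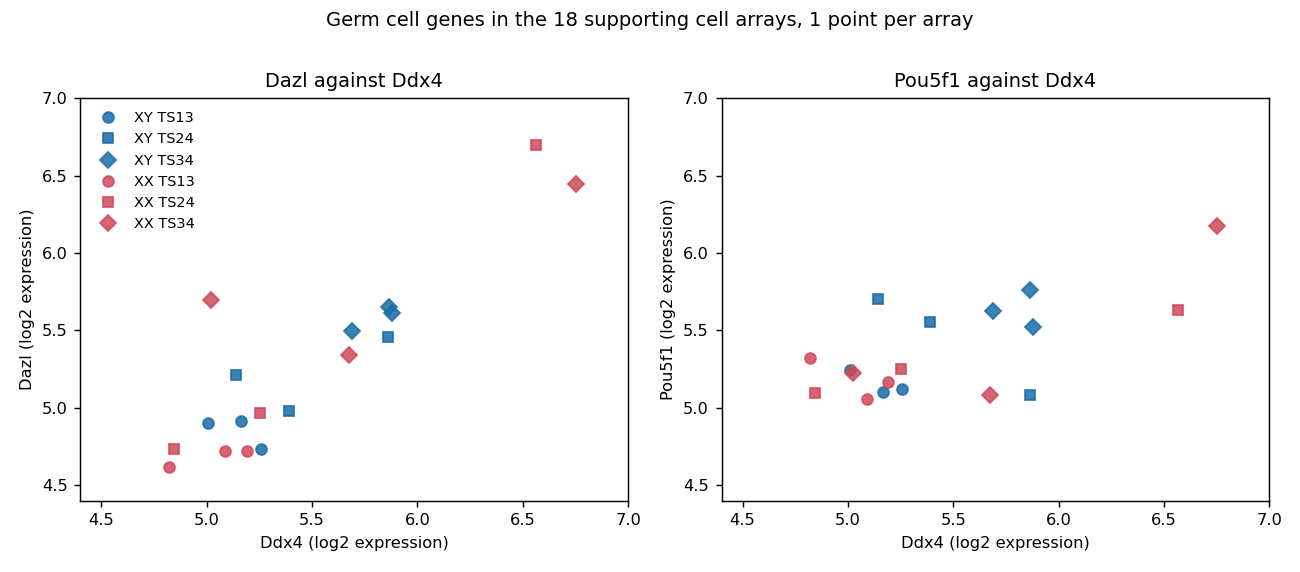
Dazl (left) and Pou5f1 (right) against Ddx4 in the 18 supporting cell arrays, all in log2 expression, with XY in blue, XX in red and a marker shape for each stage. XX TS24 replicate 1 and XX TS34 replicate 1 stand alone at the upper right of the Dazl panel, with Ddx4 at 6.56 and 6.75.

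The machinery that NANOS proteins recruit was measured through lists. Of 15 CCR4-NOT genes, including the Tob and Btg adaptors, 2 were called higher and 1 lower in XY germ cells at TS34, where 6.02% of all genes were higher and 4.45% lower, with a median difference of 0.18, against 0.06 over all genes tested. The higher ones were Btg2, an antiproliferative adaptor of the deadenylase (1.28 ± 0.31, adjusted p = 0.00268), and the scaffold subunit Cnot2 (0.61 ± 0.20, adjusted p = 0.0406), and the lower one was the adaptor Tob1 (−0.84 ± 0.20, adjusted p = 0.00271). With all arrays, Btg2 and Cnot2 were not called. In germ relative to supporting cells 7 of the 15 were higher, led by Cnot9 (1.44 ± 0.10) and Cnot11 (1.05 ± 0.08), and 6 were lower, led by Btg2 (−2.62 ± 0.13) and Tob1 (−1.19 ± 0.08), beside 32.8% and 20.2% of all genes.
Of 16 P-body and mRNA decay genes, which store or decap silenced messages, 2 were called higher in XY germ cells at TS34, the GW182 gene Tnrc6b (0.67 ± 0.20, adjusted p = 0.02) and the decapping enhancer Edc4 (0.61 ± 0.19, adjusted p = 0.0323), and none lower, beside 6.02% and 4.45% of all genes, with a median of 0.33. Relative to TS13 the decapping enzyme gene Dcp2 fell by TS34 in both sexes, by 1.06 ± 0.22 in XY and 0.92 ± 0.22 in XX germ cells. Over that span 4.8% of all genes were called lower in XY and 10.8% in XX. How many of the 16 rose or fell is not reported here. In germ relative to supporting cells 11 were higher and 1 lower, beside 32.8% and 20.2% of all genes, and 9 and 4 under quantile normalization, with the eIF4E transporter gene Eif4enif1 at 1.06 ± 0.08 first.

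Of 6 family members and paralogs tested, 0 were higher and 2 lower in XY germ cells at TS34, beside 6.02% and 4.45% of all genes: Boll, the ancestral gene of the DAZ family (−1.72 ± 0.26, adjusted p = 2.99e-06), and Dazap2 (−0.69 ± 0.23, adjusted p = 0.0421). Boll averaged 4.84 in XY and 6.56 in XX, and rose in XX germ cells by 1.60 ± 0.26 at TS34 relative to TS13. The XY mean lies below the 25th percentiles of those arrays, 5.17 to 5.60, so the sex difference is set against dim values. In germ relative to supporting cells Rbm44, a germ cell RNA-binding protein gene, was higher by 4.04 ± 0.09 and the Pumilio relative Pum3 by 1.85 ± 0.09. There 32.8% of all genes were called higher, and the count of the 6 is not reported here. A further list held the 35 genes with a Ddx symbol, Ddx4 and Ddx43 among them. In XY germ cells at TS34 8 were called higher and 0 lower, again beside 6.02% and 4.45%, with a median of 0.23. Under quantile normalization 9 were higher and 1 lower. Ddx52 (1.25 ± 0.21), Ddx18 (1.09 ± 0.23), Ddx56 (0.84 ± 0.21) and Ddx58 (0.81 ± 0.22) were foremost. Over the whole span in XX germ cells 4 rose and 13 fell, beside 6.62% and 10.8% of all genes, with a median of −0.42 beside −0.14 over all genes, and the 4 were Ddx43 (2.25), Ddx4 (1.19), the testis helicase gene Ddx25 (1.43 ± 0.24) and Ddx10 (0.94 ± 0.19). In XY germ cells 4 rose and 2 fell over that span, beside 3.32% and 4.8%. In germ relative to supporting cells 29 were higher and 1 lower, beside 32.8% and 20.2% of all genes, with a median of 0.65 beside 0.08 over all genes, and 27 and 4 under quantile normalization.

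Of 19 other germline RNA regulators tested, 2 were called higher and 4 lower in XY germ cells at TS34, beside 6.02% and 4.45% of all genes. The higher were the Musashi gene Msi2 (1.03 ± 0.24) and the ELAV gene Elavl2 (0.74 ± 0.22). The lower were Ybx2, a mRNA storage protein gene (−1.55 ± 0.21), Fmr1 (−1.20 ± 0.20), the meiotic m6A reader gene Ythdc2 (−1.05 ± 0.32) and Patl2 (−0.67 ± 0.22). Cpeb1, a polyadenylation factor gene, was the 1 gene of the 19 called between XY and XX at TS24 (0.80 ± 0.22, adjusted p = 0.0433), and it rose over the whole span in both sexes, by 1.39 ± 0.20 in XY and 0.97 ± 0.20 in XX. Ybx2 went opposite ways, with −0.88 ± 0.21 in XY and 0.75 ± 0.21 in XX over that span.
Of 9 transcripts reported as bound by DAZL that were tested, 1 was called higher in XY germ cells at TS34, the piRNA pathway gene Tdrd1 (1.28 ± 0.23, adjusted p = 4.93e-05), and 1 lower, the synaptonemal complex gene Sycp3 (−1.09 ± 0.27, adjusted p = 0.0042), beside 6.02% and 4.45% of all genes. Over the whole span 3 rose and 2 fell in each sex, beside 3.32% and 4.8% of all genes in XY and 6.62% and 10.8% in XX. The 3 that rose included Ddx4 in each sex, itself 1 of the 8 genes. Tdrd1 gained 2.47 ± 0.23 in XY and 1.22 ± 0.23 in XX, Sycp3 gained 1.20 ± 0.27 in XY and 1.57 ± 0.27 in XX, and the pluripotency gene Sox2 fell by 1.15 ± 0.21 in XY and 1.44 ± 0.21 in XX. Of 9 meiotic transcripts linked to NANOS2, 4 were called lower in XY germ cells at TS24, beside 1.46% of all genes and where Nanos2 was not called, and 8 at TS34, beside 4.45%, with a median of −2.40. At TS34 Stra8, the gatekeeper gene of meiosis, averaged 5.57 in XY and 10.22 in XX germ cells, a difference of −4.65 ± 0.22, and Meioc differed by −4.55 ± 0.29. Sycp2, the ninth, rose over the whole span in both sexes, by 3.54 ± 0.24 in XY and 4.07 ± 0.24 in XX.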

How the data were processed

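The authors deposited 1 table of log2 expression values, 35557 probe sets by 36 arrays, summarised with RMA per the submitters' processing notes; for its version, the probe set definition and the scaling between arrays the labels give no detail. The values were used without further normalization. Platform annotation gave 1 symbol for 21789 probe sets, several for 1621 and none for 12147, and 21698 symbols were updated by Entrez identifier to RefSeq (GRCm38.p6). Per gene the probe set of highest mean was kept. A gene was tested where it exceeded its array's 25th percentile on at least 3 arrays, which kept 17615 of 19938.

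Differences came from limma 3.58.1 (R 4.3.3), 1 mean per group over 35 arrays, two-sided, 29 comparisons, with Benjamini-Hochberg adjustment over all genes tested within each comparison and a threshold of 0.05. The procedure was tested on simulated data. Its precision is limited by the number of arrays. Replicate numbers are shared between groups, and same-numbered arrays did not deviate together (median r = −0.0072 over 187 pairs), so no block was used. Alternatives were all 36 arrays, quantile normalization, median centring, no filter, a filter at the 50th percentile, the mean of probe sets, arrays of 1 cell type, a replicate block, array weights, an intensity trend and leaving out each array.

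The 8 genes and the gene lists were chosen with earlier results of these data known. Named genes are the 8, at most 4 called genes of largest difference in each direction per list and comparison, and the 3 genes of highest Pearson's r with each of the 8 over 17 germ arrays. Some genes of the lists are not reported here.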

Additional observations from a re-analysis of the deposited data

Results flagged for a closer look

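The effect of sex differed between stages in germ cells for 3 of the 8 genes, by the interaction test of limma. The XY minus XX difference of Nanos2 was larger at TS34 than at TS13 by 3.82 ± 0.32 (log2, SE, adjusted p = 2.52e-12) and larger than at TS24 by 3.26 ± 0.34 (adjusted p = 9.24e-09). For Nanos3 the change was 1.91 ± 0.31 relative to TS13 (adjusted p = 4.92e-05) and 1.88 ± 0.33 relative to TS24 (adjusted p = 0.000454), and the second of these was 1.35 (adjusted p = 0.0916) with the library of somatic profile kept. For Dnd1 it was 1.29 ± 0.34 relative to TS13 (adjusted p = 0.0204) and 1.54 ± 0.37 relative to TS24 (adjusted p = 0.019). Leaving out each array in turn kept the Nanos2 changes between 2.996 and 3.996 and the Nanos3 changes between 1.72 and 2.10, all called. The Dnd1 change relative to TS13 ranged from 0.95 to 1.56 and was not called without XY TS34 replicate 3 (0.95, adjusted p = 0.144), XX TS34 replicate 3 (1.02, adjusted p = 0.128), XX TS13 replicate 1 (1.13, adjusted p = 0.0773), XY TS13 replicate 1 (1.21, adjusted p = 0.0615) or XY TS13 replicate 3 (1.25, adjusted p = 0.0503), or with all arrays (adjusted p = 0.18). Relative to TS24 it ranged from 1.10 to 1.99 and was not called without XX TS24 replicate 2 (1.10, adjusted p = 0.353), XY TS24 replicate 3 (1.47, adjusted p = 0.0519), XX TS34 replicate 3 (1.27, adjusted p = 0.121) or XY TS34 replicate 3 (1.20, adjusted p = 0.119), or with all arrays (0.94, adjusted p = 0.382).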

How the results depend on the processing

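No difference of the 8 genes that was called changed sign under any alternative. Several counts of the 8 genes called moved by over 1.5 times, and the causes were not tested. Where a comparison leaves out germ XX TS24, keeping all arrays changed the standard errors and not the estimates. With all arrays, 3 genes were called over the XX germ span, against 5 (1 higher, against 3), and 1 for the change of the sex difference between TS34 and TS24, against 3. For XX at TS34 relative to TS24 the higher count, 1, was 3 with all arrays and 0 with array weights. Over the XY supporting span array weights called 3, against 0. With all arrays, 1 gene (Ddx43) was called between XY and XX germ cells at TS24, against 0, and 0 pairs in supporting cells, against 1. Median centring gave 2 genes, against 1, for XX and for XY germ cells at TS24 relative to TS13, and 3, against 1, for XY at TS34 relative to TS24. That last count was 2 under quantile normalization, the 50th percentile filter and array weights. Array weights gave 0 for XX at TS24 relative to TS13 and 3 pairs in supporting cells, where quantile normalization gave 2 and arrays of 1 cell type 3. Leaving out an array gave 0 to 1 for XX at TS24 relative to TS13, 1 to 2 for XY at TS34 relative to TS24, and 0 to 2 pairs in supporting cells. The replicate numbers could not be shown to pair the arrays, and with a replicate block 3 of the 8 were called between XY and XX germ cells at TS34 and 8 between germ and supporting cells, as without it. Over all genes, the number called between XY and XX germ cells was 1844 at TS34, with 1291 using all arrays and 5066 using array weights, where the median difference was 0.27, and 344 at TS24, with 95 using array weights and 767 using all arrays. For XX at TS24 relative to TS13 it was 213, with a range of 92 to 352, and over the whole XX span 3073, with up to 4618. For XY it was 263 at TS24 relative to TS13 (106 to 356), 480 at TS34 relative to TS24 (202 to 575) and 1430 over the whole span (947 to 1813). For the change of the sex difference it was 645 between TS34 and TS13 (286 to 1511), 201 between TS34 and TS24 (161 to 453) and 27 between TS24 and TS13 (14 to 62). For germ against supporting cells in XY at TS34 it was 5084, with up to 8969, and for XX supporting cells over the whole span 815 (555 to 2503). Quantile normalization split the calls into 1122 higher and 1136 lower between the sexes at TS34, against 1061 and 783; 818 and 801 for XX at TS34 relative to TS24, against 327 and 1234; 2017 and 1742 over the XX span, against 1166 and 1907; 192 and 103 for XX at TS24 relative to TS13, against 172 and 41; 303 and 242 for XY at TS34 relative to TS24, against 173 and 307; 918 and 866 over the XY span, against 585 and 845. Of all values recomputed under other settings, 2208 stayed on their side of the threshold, 35 gained a call and 21 lost it; leaving out 1 array gave 1721, 14 and 33. Dim signal limits Dazl and Ddx4 in supporting cells, which were above the 25th percentile of their array on 8 and 9 of 18 arrays. Nanos2 in XX germ cells at TS34 was above the array median on 0 of 3 arrays.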
